A study of Mus musculus with 6 samples.

Results

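The genes described here are those of the endothelin system: the ligand genes Edn1, Edn2 and Edn3, the receptor genes Ednra and Ednrb, and the converting enzyme genes Ece1 and Ece2. They were taken by symbol, and all 7 were found among the 19285 genes with values. Expression was measured by RNA sequencing of primary testicular peritubular myoid cells of C57BL/6J mice, the smooth-muscle-like cells that surround the seminiferous tubules. In 3 libraries the cells had been given 50 nM endothelin-1 (ET-1) for 5 min, and in 3 libraries they were untreated. Cells of both groups had been grown in DMEM/F12 medium with fetal bovine serum. Nothing in the labels tells whether libraries are separate cultures, animals or repeats of one preparation, and the p-values below therefore describe the spread among these 6 libraries, part of which may be technical. Levels are in FPKM, a fragment count divided by transcript length and by library depth, so levels of different genes can be compared per length.

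Endothelins are made as long precursors. Furin-type convertases cut the precursor to an inactive intermediate called big endothelin, and the membrane metalloproteases encoded by Ece1 and Ece2 cut that to the short active peptide. The receptor encoded by Ednra prefers ET-1 and ET-2 over ET-3, whereas the one encoded by Ednrb binds all of them about equally. Both couple to G proteins of the Gq class, which raise intracellular calcium, and in the rat ET-1 is known to contract peritubular myoid cells. The comparison asks whether transcripts of this system differed between cultures with and without a short exposure to its own ligand.

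The coding stretches of the mature peptides are shown because the peptide given to the cells is the product of one of these genes, and because they show how close the ligands are. They were read from GENCODE M21 transcripts of build GRCm38, 5′ to 3′, in lower case, with capitals at each base that differs from Edn1.
Edn1: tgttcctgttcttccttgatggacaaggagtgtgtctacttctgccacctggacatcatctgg
Edn2: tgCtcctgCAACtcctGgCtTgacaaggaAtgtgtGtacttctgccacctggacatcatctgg
Edn3: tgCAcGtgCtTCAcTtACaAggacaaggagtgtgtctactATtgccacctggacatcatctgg
Each stretch has 63 bases, codes for 21 residues and lies within exon 2 of its gene, at chr13:42303649-42303711 for Edn1, chr4:120161951-120162013 for Edn2 and chr2:174761749-174761811 for Edn3, all on the plus strand. Edn2 differed from Edn1 at 10 bases and 3 residues, and Edn3 differed from Edn1 at 13 bases and 6 residues. The last 21 bases carry no capital in any of the 3 genes.

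None of the endothelin genes that could be tested passed the test for a change after ET-1. Edn1 was the ligand gene of these cultures and one of their more abundant transcripts, Ece1 had levels that overlapped with those of Edn1, and Ednra was the more abundant receptor gene. Edn2 was at 0.04 to 1.78 FPKM and Edn3 was at the limit of detection. The fit was made with limma on log2(FPKM + 1) over all 11664 genes with at least 1 FPKM in at least 3 libraries, with a Benjamini-Hochberg adjusted p under 0.05 as the threshold. Edn1, Ednra, Ednrb, Ece1 and Ece2 entered it, while Edn2 and Edn3 lay below the filter. Of the 5, 0 passed, and 0 had an unadjusted p under 0.05. Over all genes tested limma called 404, or 3.46%, and 24.1% had an unadjusted p under 0.05. The values of the groups overlapped in all 5 tested members, and over all genes tested the groups did not overlap in 30.9%. With only 5 members, these counts do not set the endothelin genes apart from other genes. Leaving out single libraries moved the count of 404 widely: 0 genes passed without untreated library 3, 75 to 105 without untreated library 1 or without ET-1 library 1 or 2, and 797 without ET-1 library 3. With the replicate number as a block, 1102 genes passed (9.45%), and again 0 of the 5.

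**Figure D1:**
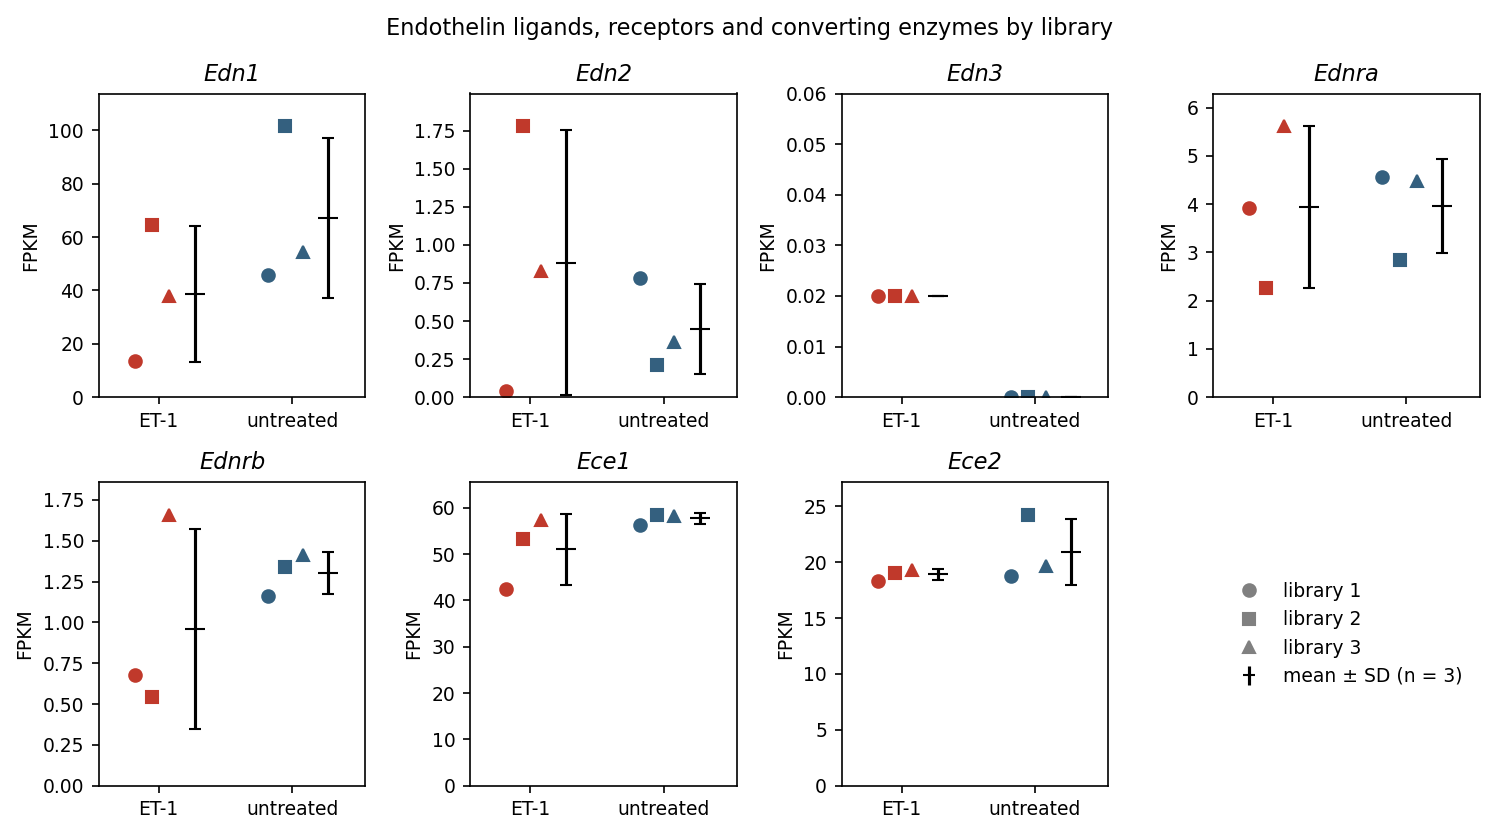
FPKM of the 7 endothelin genes (vertical axes, linear and starting at 0, with a scale of its own for each gene) in the ET-1 and the untreated libraries. Symbols mark the library number and the bars the mean ± SD of 3 libraries. Edn1 was highest in library 2 of both groups, and the groups overlap in every gene except Edn3, which was at 0.02 FPKM in each ET-1 library and at 0 in each untreated one.

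Edn1, the gene of ET-1 itself (chromosome 13, 42301476 to 42307990, mm10, plus strand), was at 13.51, 64.60 and 37.89 FPKM in ET-1 libraries 1 to 3, against 45.73, 101.64 and 54.30 FPKM in untreated libraries 1 to 3. ET-1 library 1 was the lowest of the 6 and untreated library 2 the highest, and ET-1 library 2 lay above untreated libraries 1 and 3. The spread within a group was wide, with a 4.78-fold range among the ET-1 libraries and a 2.22-fold range among the untreated ones. The mean was 38.7 ± 25.6 FPKM after ET-1 and 67.2 ± 30.1 FPKM in untreated cells (SD, n = 3 each). The log2 change of -0.95 ± 0.56 (SE) had a 95% interval from -2.27 to 0.37 (limma adjusted p = 0.348), which spans 0.208-fold to 1.3-fold on the FPKM + 1 scale. These libraries therefore leave room for a fall of several fold as well as for a small rise. Among libraries of the same number, Edn1 was lower after ET-1 in 3 of 3, by 32.2, 37.0 and 16.4 FPKM for numbers 1, 2 and 3. With the number as a block, the SE fell to 0.23 and the limma adjusted p was 0.0568, still above the threshold. The size rests on single libraries: the log2 change was -0.35 without ET-1 library 1, -0.61 without untreated library 2 and -1.44 without ET-1 library 2. At the depth estimated from the steps between low values, 17650000 to 18300000 fragments per library, these levels correspond to about 514 to 2439 fragments in the ET-1 libraries and 1780 to 3957 in the untreated ones. Counting error is therefore small beside the spread between libraries.

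Edn1 stood high among all genes of these cultures. Its mean exceeded that of 88.5% of the 19285 genes in the ET-1 group and of 92.9% in the untreated group. It made up nearly all of the ligand transcripts, with 98.2 ± 1.2% of the summed FPKM of Edn1, Edn2 and Edn3 after ET-1 and 99.2 ± 0.8% in untreated cells (SD, n = 3 each; exact two-sided permutation test, p = 0.3, where 3 against 3 libraries cannot go below 0.1).

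Edn2, the gene of ET-2 (chromosome 4, 120161206 to 120167360, plus strand), was at 0.04, 1.78 and 0.83 FPKM in ET-1 libraries 1 to 3, against 0.78, 0.21 and 0.36 FPKM in untreated libraries 1 to 3. These values stand for about 1, 46 and 22 fragments in the ET-1 libraries and about 21, 6 and 10 in the untreated ones. The ET-1 libraries held both the lowest and the highest value of the 6. Edn2 reached 1 FPKM in 1 library only, so it was not tested with the other genes, and in limma without a filter it did not pass (adjusted p = 0.759).

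Edn3, the gene of ET-3 (chromosome 2, 174760619 to 174784042, plus strand), was listed at 0.02 FPKM in all 3 ET-1 libraries and at 0 in all 3 untreated ones. A value of 0.02 FPKM is about 1 fragment of its transcript, and a count of 0 allows up to 3 fragments, or 0.0526 to 0.0545 FPKM, at these depths. The difference therefore lies below what the libraries can resolve. In limma without a filter the identical values of each group gave Edn3 an adjusted p of 0.0341 with a log2 change of 0.03, in a fit that called 0.42% of 19285 genes. That call rests on about 1 fragment in each of 3 libraries.

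Ednra, the endothelin A receptor gene (chromosome 8, 77663029 to 77724452, minus strand), was at 3.92, 2.26 and 5.62 FPKM in ET-1 libraries 1 to 3, against 4.56, 2.85 and 4.48 FPKM in untreated libraries 1 to 3. The libraries numbered 2 were the lowest of their group, opposite to Edn1, and ET-1 library 3 was the highest of the 6. The means of 3.93 ± 1.68 FPKM after ET-1 and 3.96 ± 0.97 FPKM in untreated cells (SD, n = 3 each) were nearly equal. The log2 change was -0.05 ± 0.28 (SE; limma adjusted p = 0.938), with a 95% interval from -0.71 to 0.61, so changes of up to about 1.53-fold upward or to 0.612-fold downward are inside it. The sign of this small value turned to 0.22 without ET-1 library 2, and to 0.04 and 0.03 without untreated library 1 or 3.

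Ednrb, the endothelin B receptor gene (chromosome 14, 103814615 to 103844476, minus strand), was at 0.68, 0.54 and 1.66 FPKM in ET-1 libraries 1 to 3, against 1.16, 1.34 and 1.41 FPKM in untreated libraries 1 to 3. ET-1 libraries 1 and 2 were the lowest of the 6 and ET-1 library 3 the highest, while the untreated libraries lay close together. The means were 0.96 ± 0.61 FPKM after ET-1 and 1.30 ± 0.13 FPKM in untreated cells (SD, n = 3 each). The log2 change was -0.27 ± 0.21 (SE; limma adjusted p = 0.476), with a 95% interval from -0.78 to 0.23. It was -0.12 without ET-1 library 2 (limma adjusted p = 0.787) and -0.52 without ET-1 library 3 (limma adjusted p = 0.0628).

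Ednra was the more abundant receptor transcript in each of the 6 libraries. It held 85.2%, 80.7% and 77.2% of the summed receptor FPKM in ET-1 libraries 1 to 3, against 79.7%, 68.0% and 76.1% in untreated libraries 1 to 3. The groups overlapped, with means of 81.0 ± 4.0% after ET-1 and 74.6 ± 6.0% in untreated cells (SD, n = 3 each; exact two-sided permutation test, p = 0.2, with 0.1 the smallest possible). The difference of 6.44 percentage points was 3.15 without untreated library 2. The summed receptor level was 4.89 ± 2.25 FPKM after ET-1 and 5.27 ± 0.94 FPKM in untreated cells (SD, n = 3 each). Both receptor genes were thus far less abundant per length than the ligand gene Edn1 in the same libraries.

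Ece1, the gene of endothelin-converting enzyme 1 (chromosome 4, 137862237 to 137965229, plus strand), was at 42.6, 53.2 and 57.3 FPKM in ET-1 libraries 1 to 3, against 56.4, 58.5 and 58.2 FPKM in untreated libraries 1 to 3. The untreated values were close together, ET-1 library 3 lay among them, and ET-1 library 1 was the lowest of the 6. The means were 51.0 ± 7.6 FPKM after ET-1 and 57.7 ± 1.2 FPKM in untreated cells (SD, n = 3 each). The log2 change was -0.18 ± 0.12 (SE; limma adjusted p = 0.407), with a 95% interval from -0.48 to 0.11, or 0.718-fold to 1.08-fold. Without ET-1 library 1 it was -0.06.

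The row of Ece2, the gene of endothelin-converting enzyme 2 (chromosome 16, 20611601 to 20645915, plus strand), was at 18.4, 19.1 and 19.3 FPKM in ET-1 libraries 1 to 3, against 18.8, 24.3 and 19.7 FPKM in untreated libraries 1 to 3. Untreated library 2 stood above the others, which lay within about 1 FPKM of each other. The means were 18.9 ± 0.5 FPKM after ET-1 and 20.9 ± 3.0 FPKM in untreated cells (SD, n = 3 each), with a log2 change of -0.13 ± 0.12 (SE; 95% interval -0.41 to 0.15; limma adjusted p = 0.547). Without untreated library 2 the change was -0.02, and without untreated library 1 it was -0.20. The row does not stand for Ece2 alone. Of the 5 transcripts it pools, 2 belong in RefSeq to Ece2, 2 to the readthrough gene Eef1akmt4-ece2 and 1 to Eef1akmt4, which encodes a lysine methyltransferase of a translation elongation factor. No level can therefore be given for Ece2 apart from its neighbour. Ece1 held 72.8 ± 2.6% of the summed FPKM of both rows after ET-1 and 73.5 ± 2.4% in untreated cells (SD, n = 3 each; exact two-sided permutation test, p = 0.6, with 0.1 the smallest possible).

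In order of mean level, with the pooled Ece2 row in place of Ece2, the cells given ET-1 had Ece1, Edn1, the Ece2 row, Ednra, Ednrb, Edn2 and Edn3. The ranges of Ece1 and Edn1, of Edn1 and the Ece2 row and of Ednrb and Edn2 overlapped, and the other neighbours were apart. For Edn2 and Edn3 the gap was 0.04 against 0.02 FPKM, about 1 fragment each, which the libraries cannot resolve. In untreated cells the order was Edn1, Ece1, the Ece2 row, Ednra, Ednrb, Edn2 and Edn3, where the ranges of Edn1 and Ece1 overlapped and all other neighbours were apart. The exchange of Edn1 and Ece1 at the top lies within the spread of both groups, and the place of Ece2 itself is not known.

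**Figure D2:**
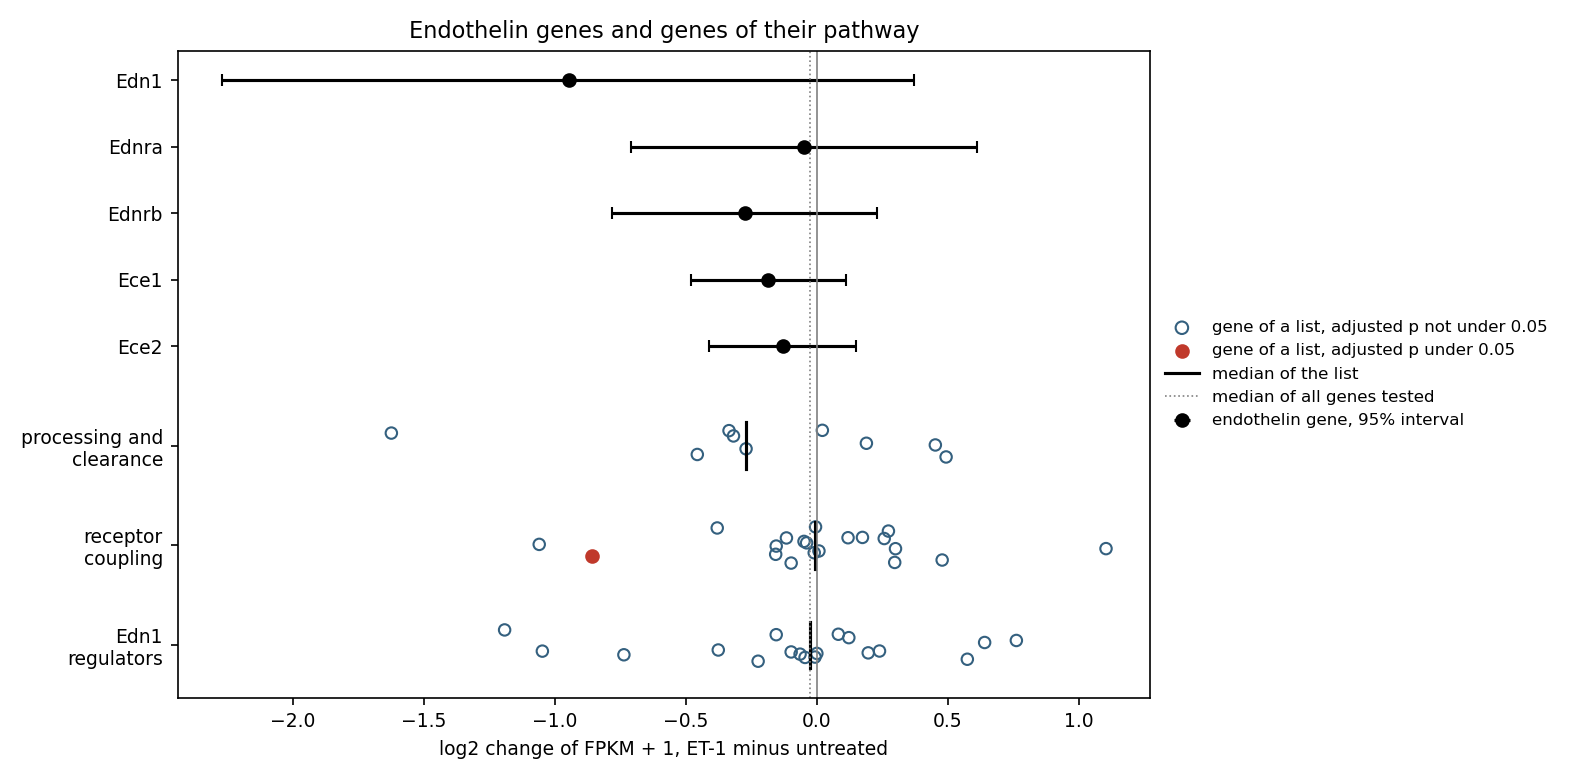
Log2 change of FPKM + 1, ET-1 minus untreated (horizontal axis), for the 5 tested endothelin genes with 95% intervals (black points and bars) and for the tested genes of 3 pathway lists (circles, filled where the limma adjusted p is under 0.05, short line at the list median, vertical jitter without meaning). All 5 intervals include 0, that of Edn1 is the widest, and Rgs5 is the single filled circle.

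The authors' deposited table gives its own comparison of the groups, with log2 changes of ET-1 over untreated and q-values named for the tool DEGseq. In the authors' deposited table Edn1 had a log2 change of -0.80 with q = 4.7e-203, Ece1 -0.18 with q = 3.45e-25, Ednrb -0.41 with q = 0.00246 and Edn2 0.96 with q = 0.000632. Ednra (log2 change 0.00, q = 0.41) and the Ece2 row (-0.03, q = 0.272) did not pass 0.05 in the authors' deposited table, and Edn3 had no value. That table places 66.1% of its 16812 genes under q = 0.05, against 3.46% called by limma on the FPKM of the separate libraries. The sizes in both sources are alike for Edn1, while the groups' FPKM values overlap in each of Edn1, Ece1, Ednrb and Edn2.

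The wider pathway was followed in 3 lists. The first held 13 enzymes taken as candidates for cutting endothelin precursors or breaking the peptides down, of which 9 were tested. Whether each of them acts on endothelins was not examined. Of these 0 passed in limma, beside 3.46% of all genes tested, and 5 had an unadjusted p under 0.05, beside 24.1% of all genes. The median log2 change was -0.27, beside -0.03 over all genes tested. Furin, the convertase of the first cut, was at 41.4 ± 8.3 FPKM after ET-1 and 40.6 ± 5.5 FPKM in untreated cells (SD, n = 3 each). Ctsa, a lysosomal carboxypeptidase that degrades ET-1, was at 157.4, 137.1 and 135.9 FPKM in ET-1 libraries, against 110.6, 93.3 and 110.2 FPKM in untreated libraries. The groups of Ctsa did not overlap (log2 change 0.45 ± 0.11, SE). Its limma adjusted p was 0.0779, which became 0.0463 once the replicate block was added. Pcsk6, another proprotein convertase, was at 2.54 ± 0.19 FPKM after ET-1 and 1.53 ± 0.33 FPKM in untreated cells (SD, n = 3 each; limma adjusted p = 0.0886). Mmp2 encodes a gelatinase reported to cleave big endothelin. It was at 16.8, 6.80 and 13.1 FPKM in ET-1 libraries, against 62.7, 15.4 and 53.8 FPKM in untreated libraries. For Mmp2, untreated library 2 was below ET-1 library 1 (limma adjusted p = 0.138, 0.0108 with the replicate block and 0.0339 without untreated library 2). Furin and Mmp2 were named after their values were seen. Ecel1, Kel, Cma1 and Mmp9 lay below the filter, each at 0.15 FPKM or less in every library.

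The second list held 21 genes that couple the receptors to their effectors or switch them off, and 20 were tested. By limma 1 fell and 0 rose, where 1.89% of all genes tested fell and 1.57% rose. There were 4 at an unadjusted p under 0.05, again beside 24.1% of all genes, and the median log2 change was -0.01. The gene that fell was Rgs5, a GTPase activator for Gq and Gi proteins, at 1.17, 0.98 and 1.70 FPKM in ET-1 libraries, against 2.91, 3.65 and 2.79 FPKM in untreated libraries. The log2 change of Rgs5 was -0.86 ± 0.16 (SE; limma adjusted p = 0.0428). The call held without ET-1 library 3 and was lost without each of the other 5 libraries (limma adjusted p = 0.0729 to 0.178), without a filter (0.102) and with untreated libraries 1 and 3 averaged (0.142). Rgs2, which acts mainly on Gq, was at 22.2, 29.5 and 14.1 FPKM in ET-1 libraries, against 8.13, 10.2 and 9.48 FPKM in untreated libraries. The groups of Rgs2 did not overlap (log2 change 1.10 ± 0.25, SE). Its limma adjusted p was 0.0637, which became 0.0281 once the replicate block was added. Gna11 and Gnaq, the Gq-class alpha subunits, did not pass, with log2 changes of -0.05 ± 0.09 and 0.27 ± 0.16 (SE; limma adjusted p = 0.782 and 0.345). Both were named after their values were seen.

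The third list held 20 factors known to act on Edn1 transcription, and 18 were tested. Of these 0 passed in limma, beside 3.46% of all genes tested, and 4 had an unadjusted p under 0.05, beside 24.1%. The median log2 change was -0.03, as over all genes tested. The members with the smallest p were the oxygen-regulated factors Epas1 and Hif1a. Hif1a was at 40.8, 29.9 and 66.7 FPKM in ET-1 libraries, against 122.6, 69.9 and 117.5 FPKM in untreated libraries (log2 change -1.19 ± 0.33, SE; limma adjusted p = 0.0926). Epas1 was at 4.89, 7.58 and 8.70 FPKM in ET-1 libraries, against 18.47, 11.95 and 16.14 FPKM in untreated libraries (log2 change -1.05 ± 0.23, SE; limma adjusted p = 0.0591). With the replicate block the limma adjusted p was 0.0144 for Hif1a and 0.0416 for Epas1, and the groups did not overlap in either gene.

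The start of Edn1 is shown because the list of factors bears on it. Human EDN1 is known to respond through AP-1, GATA and hypoxia-inducible factor sites close to its start. The RefSeq window from 250 bases before to 50 after the Edn1 start (GRCm38.p6) was searched on both strands. The letters searched were TGACTAA for an AP-1 element, TTATCT for a GATA element and CACGT for the core bound by hypoxia-inducible factors. Each occurred once, with its first base at position 37 for AP-1, 9 for GATA and 22 for the hypoxia core, counted from 1 at the start. All of them thus lie after the annotated start. The last 30 bases of that window, plus strand, with the letters of the hypoxia core and of the AP-1 element in capitals, read as follows.
Edn1 chr13:42301496-42301525: gCACGTtgcctgtgggTGACTAAtcacaca
Of 32851 such windows in the table, 2.35% held the AP-1 letters on either strand, 11.2% the GATA letters and 19.6% the hypoxia core. Among the 10 windows of the 7 endothelin genes, the hypoxia core also occurred in one window of Ece1 and in that of Ece2, and the other motifs in none but that of Edn1. A match is a description of letters and not of a bound site. The motifs were picked because human EDN1 is known to respond through such sites. A match in Edn1 was therefore likely beforehand, and its share among all windows is no test. The AP-1 subunits Fos and Jun, named after their values were seen, were at 49.1 ± 17.3 and 51.4 ± 3.5 FPKM after ET-1 and at 27.6 ± 4.4 and 44.7 ± 2.3 FPKM in untreated cells (SD, n = 3 each; limma adjusted p = 0.137 and 0.253). Gata2, also named afterwards, was at 1.55 ± 0.43 FPKM after ET-1 and 1.41 ± 0.34 FPKM in untreated cells (SD, n = 3 each).

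Markers of myoid and other cell types were followed to describe the cultures. All 9 myoid markers were present, led by Acta2 and Tagln, and their summed level was 4613 to 6469 FPKM after ET-1 and 3990 to 4629 FPKM in untreated cells, with 0 of 9 called by limma. Of 8 tested endothelial markers 4 fell, where 1.89% of all genes tested fell and 1.57% rose, among them Egfl7, at 4.60 ± 0.29 FPKM after ET-1 and 15.8 ± 1.6 FPKM in untreated cells (SD, n = 3 each; limma adjusted p = 0.0070, and 0.0622 without untreated library 3). The 12 endothelial markers summed to 33.1 to 52.0 FPKM after ET-1 and 65.3 to 101.8 FPKM in untreated cells, while Cdh5, the cadherin of endothelial cells, was at 19.4 ± 7.2 FPKM after ET-1 and 15.9 ± 5.5 FPKM in untreated cells (SD, n = 3 each). Of 11 tested macrophage markers 1 rose, the lysozyme gene Lyz2, although the log2 change was above 0 in 10 and below 0 in 1. By limma 9 of the 11 had an unadjusted p under 0.05, beside 24.1% of all genes tested. The groups did not overlap in 7 of them, beside 30.9% of all genes tested. The 12 macrophage markers summed to 310.5 to 734.6 FPKM after ET-1 and 123.4 to 199.9 FPKM in untreated cells. Of 8 tested Sertoli cell markers 1 rose, Aard, and the 9 summed to 349.0, 920.6 and 449.9 FPKM in ET-1 libraries 1 to 3, against 181.4, 668.1 and 276.7 FPKM in untreated libraries 1 to 3. The Leydig cell markers summed to 827.7 to 2422 FPKM after ET-1 and 2335 to 4960 FPKM in untreated cells, most of it Insl3, a peptide hormone gene, at 1338 ± 742 FPKM after ET-1 and 3647 ± 1394 FPKM in untreated cells (SD, n = 3 each). Star, a cholesterol transporter gene of steroid synthesis, went the other way, at 129.7 ± 25.7 FPKM after ET-1 and 73.1 ± 9.7 FPKM in untreated cells (SD, n = 3 each; limma adjusted p = 0.0562, with the replicate block 0.0463), with groups that did not overlap. In untreated cells Insl3 had a higher mean than Acta2 at 1605 and Tagln at 1476 FPKM. After ET-1 Insl3 had a lower mean than Acta2 at 1841 and Tagln at 1928 FPKM. In untreated libraries 1 and 3 the Leydig sum, 4889 and 4960 FPKM, was above the myoid sum, 4629 and 4566 FPKM. It was below the myoid sum in untreated library 2 and in each ET-1 library. The germ cell markers summed to 7.30 to 17.7 FPKM after ET-1 and 8.39 to 14.2 FPKM in untreated cells. By limma 0 of 4 tested Leydig cell markers and 0 of 3 tested germ cell markers passed. With the replicate block 6 of the 11 macrophage markers rose and 1 fell, and 6 of the 8 endothelial markers fell and 0 rose. There 2 of 8 Sertoli cell markers rose and 0 fell, and 2 of 4 Leydig cell markers fell and 1 rose. No tested myoid or germ cell marker passed in that fit, and 9.45% of all genes tested passed in either direction. No marker of any list was at 0 in all 6 libraries, but some were near the floor. The Leydig cell markers Cyp17a1, Hsd17b3 and Lhcgr reached at most 0.09, 0.04 and 0.44 FPKM. Values this low do not show that a cell type was present. The means of Edn1, which did not pass the test, and of the endothelial sum were both lower after ET-1. Within each group, Edn1 was highest and the endothelial sum lowest in library 2, a rank that rests on 1 library per group. The Sertoli and germ cell sums were highest there too, and the Leydig sum and Ednra were lowest. The part of these cells in the levels of the endothelin genes was not tested. In such cultures fewer cells of a type and less RNA per cell cannot be told apart.

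**Figure D3:**
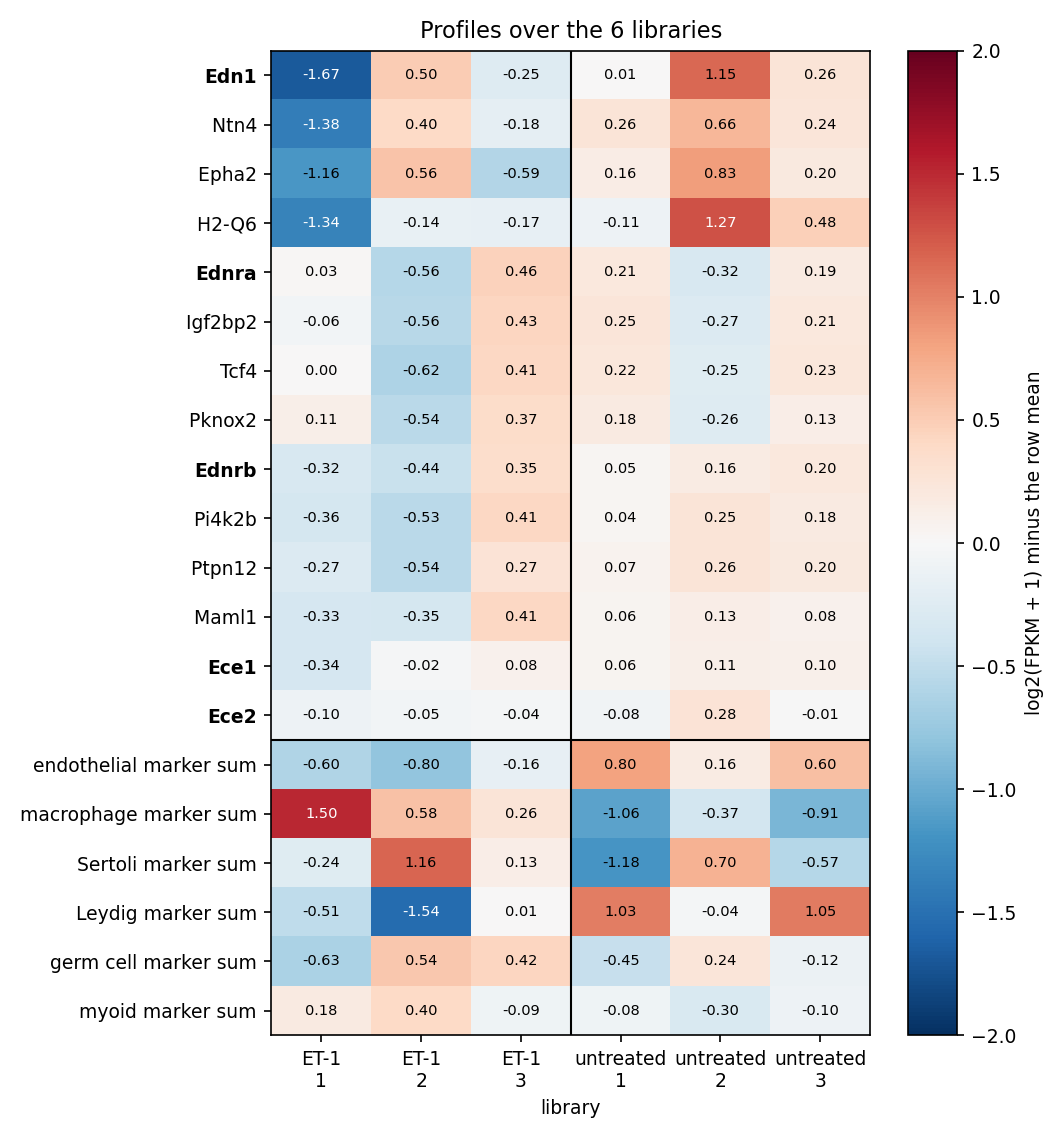
Profiles over the 6 libraries (columns) of the 5 tested endothelin genes (bold), of the 3 genes most like Edn1, Ednra and Ednrb listed under each, and of the summed markers of 6 cell types. Numbers and colours give log2(FPKM + 1) minus the row mean. Edn1 runs from -1.67 in ET-1 library 1 to 1.15 in untreated library 2, and Ednra is lowest in both libraries numbered 2.

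The genes whose profiles were most like those of Edn1 and the receptors were found by the root mean square distance between log2(FPKM + 1) profiles, each centred on its own mean, over the 6 libraries. For each, 8303 or 8304 named genes with a mean of at least 5 FPKM were compared, over only 6 points. For Edn1, whose own spread was 0.87, the nearest were Ntn4, a netrin of basement membranes (distance 0.26), Epha2, an ephrin receptor (0.29), and H2-Q6, a class I histocompatibility gene (0.32), which has near-identical copies and is therefore uncertain. Ntn4 was at 4.61, 18.3 and 11.9 FPKM in ET-1 libraries 1 to 3, against 16.5, 22.1 and 16.2 FPKM in untreated libraries 1 to 3, so it too was lowest in ET-1 library 1 and highest in untreated library 2. For Ednra, with a spread of 0.34, they were Igf2bp2, an RNA-binding protein (0.05), and the transcription factors Tcf4 (0.05) and Pknox2 (0.06). Igf2bp2 was at 5.23, 3.41 and 7.76 FPKM in ET-1 libraries 1 to 3, against 6.70, 4.38 and 6.51 FPKM in untreated libraries 1 to 3, with the lowest value of each group in library 2. For Ednrb, with a spread of 0.28, they were Pi4k2b, a phosphatidylinositol kinase (0.06), Ptpn12, a tyrosine phosphatase (0.07), and Maml1, a coactivator of Notch signalling (0.07). None of these 9 genes passed in limma, with adjusted p from 0.187 to 0.948. They were chosen for their likeness to genes that did not pass, so this is no separate result.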

How the data were processed

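RNA from 3 ET-1-treated and 3 untreated libraries was analysed, with groups and replicate numbers taken from the titles. Per the labels' protocols, libraries followed the BGI protocol. The build was mm10 and the tools were RSEM 1.2.12, HISAT2 2.0.4 and Bowtie2 2.2.5, per the submitters' processing notes, which assign them no steps. The authors deposited 1 table with an FPKM value per gene and library, rounded to 2 decimals, with the authors' group means, a log2 fold change, and p-values and q-values. In 99.5% of genes the deposited log2 value was positive where mean FPKM was higher with ET-1 and negative where it was lower. The sources used here state neither how that comparison treated replicates nor whether counting used strand. GENCODE M21 has opposite-strand genes that overlap the spans of Edn1, Ednra, Ece1 and Ece2. Where exons overlap, which was not examined, reads cannot be told apart if strand was not used.

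Depth was estimated from genes of 300 to 1200 bases with 1 transcript and 0.05 to 0.6 FPKM. The share of such values within 0.15 of a whole fragment was 85.2% to 89.6%, so fragment numbers are approximate, cover counting error only and were not tested. limma 3.58.1 in R 4.3.3 was run on log2(FPKM + 1), with a mean-variance trend and group as the only term, two-sided, and was tested on simulated data. The pseudocount understates changes of low genes. Shares were compared with exact permutation tests. The text names all members, the called genes of each list or those with the smallest p up to 2, the 3 nearest profiles, and up to 4 markers per list. Members and lists were chosen with earlier results of these data known.

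Deviations from the group mean were correlated across genes between libraries of the same number (r = 0.228 for number 1, 0.523 for 2 and 0.202 for 3), so the number was also used as a block. The labels do not say what a number stands for, and 2 of the 3 numbers were not best matched to their own partner: ET-1 library 1 correlated better with untreated library 3 (0.271), and ET-1 library 3 with untreated library 1 (0.249).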

Additional observations from a re-analysis of the deposited data

How the results depend on the processing

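Alternatives were a pseudocount of 0.1 or 5, no filter, equal medians, quantile normalization, a replicate block, each library left out and untreated libraries 1 and 3 averaged. Over these 13 settings and 5 tested members, 0 of 65 fits in limma gave an adjusted p under 0.05, and 61 kept the sign. The sign that turned was that of Ednra, which ran from -0.29 to 0.221 with single libraries left out and was 0.039 with untreated libraries 1 and 3 averaged. Edn1 kept its sign in all 13, from -1.435 to -0.347 (adjusted p 0.0568 to 0.674). Without a filter 1 endothelin gene passed, Edn3.

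The count over all genes, 404, was 81 without a filter, 1102 with the replicate block, 9 with untreated libraries 1 and 3 averaged, and 0 to 797 with single libraries left out. With the replicate block 2 of 9 processing genes (Ctsa and Mmp2) and 2 of 20 coupling genes (Rgs2 and Rgs5) passed. So did 2 of 18 Edn1 regulators (Epas1 and Hif1a), beside 9.45% of all genes tested in that fit. No endothelin gene changed its call with the block. With single libraries left out the counts ran from 0 to 1, from 0 to 2 and from 0 to 2. The coupling count was 0 without a filter and with untreated libraries 1 and 3 averaged. With single libraries left out, the difference in share ran from -2.13 to 0.71 percentage points for Ece1, from 3.152 to 9.003 for Ednra and from -1.61 to -0.47 for Edn1. Low levels rest on few fragments, which limits Edn2 and Edn3. The cause of these shifts was not tested, other than that a fit without 1 library has fewer samples.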

Other observations

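For the Ece2 row the 2 deposited measures differ. The authors' deposited table gives a log2 change of -0.03 for this row, whereas the log2 ratio of the authors' group means of FPKM is -0.14. For Edn1 the values from the authors' deposited table were -0.80 by both, and for Ednrb they were -0.41 for the log2 change and -0.44 for the ratio of means. The cause of these gaps was not tested. Camk2n2, which encodes an inhibitor of the calcium kinase CaMKII, lies inside the Ece2 row on the opposite strand (chromosome 16, 20619215 to 20621278). It was at 9.01, 14.4 and 10.6 FPKM in ET-1 libraries 1 to 3, against 5.53, 7.61 and 5.14 FPKM in untreated libraries 1 to 3. The groups of Camk2n2 did not overlap (log2 change 0.79 ± 0.20, SE). Its limma adjusted p was 0.0803, which became 0.0183 once the replicate block was added. It was named after its values were seen.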
